A study of Drosophila melanogaster with 40 samples.

Results

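The Turandot genes encode small secreted proteins that *Drosophila* releases into the hemolymph after stress. They were taken from the count table by gene symbol: *TotA*, *TotB*, *TotC*, *TotM*, *TotX* and *TotZ*, which are 6 of 17784 features, the table also holding 226 families of transposable elements. The table covers 40 pools of heads from wild-type males that were 10 days old, with 13 to 21 heads in a pool. Drug or vehicle was given acutely, for 24 h, or chronically, for 10 days, and the agents were the vehicle DMSO (0.2% in the labels), 2-AAPA (10 µM), an inhibitor of glutathione reductase, and mitoQ (100 µM), an antioxidant that is targeted to mitochondria. The 6 groups were acute DMSO (n = 7), acute 2-AAPA (n = 6), acute mitoQ (n = 7), chronic DMSO (n = 7), chronic 2-AAPA (n = 7) and chronic mitoQ (n = 6).

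Per the study's methods, acutely fed flies were kept on cornmeal-molasses food until the day of feeding, whereas chronically fed flies lived on an instant medium throughout, so that length of feeding and diet cannot be told apart. The study's list of drug solvents gives ethanol for mitoQ, whereas the labels name DMSO for every group, so a comparison of mitoQ with DMSO may also hold a difference in solvent. All flies had the same age and sex, and no group went without a vehicle. Nothing in the labels says that the pools of a group came from separate cultures or days, and the p-values below measure the spread between these pools.

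In adult flies the fat body, the counterpart of liver and adipose tissue that also lines the head capsule, is the main known source of Turandot proteins. Heat, wounding, bacterial infection and oxidants are known to raise *TotA*, the founding member. Its induction is known to need the JAK-STAT pathway, in which cytokines of the Unpaired family bind the receptor Domeless and activate the transcription factor Stat92E, and the Imd pathway, the fly's response to bacterial peptidoglycan. *TotM* is known to depend on the stress kinase Mekk1. In a pool of heads, fewer fat body cells and less RNA in each cell cannot be told apart.

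Between 24318573 and 30104079 reads were counted per pool. Photoreceptor markers were abundant in every pool, with a summed level of 58669 to 83186 CPM (counts scaled to the depth of the pool), as heads should give. The pool chronic DMSO 7 stood apart, with 16259 detected features against 13911 to 14459 in the others, and with accessory gland markers at 1071 CPM, against 0.300 CPM at the median of all pools. The pool chronic DMSO 4 had the lowest summed level of fat body markers (3452 CPM against 5468 to 14039 CPM) and the lowest share of ribosomal RNA (0.577% against 1.72% to 8.97%). The study left out a chronic DMSO sample that it does not name. Chronic DMSO comparisons of Turandot genes below are given with and without each of these pools for some members. Counts called in gene lists and among all features are given with all pools, and the part of these pools in them was not tested.

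Most members lie side by side on chromosome arm 3R of build BDGP6. *TotA* (FBgn0028396) is at chr3R:20871036-20871700, *TotC* (FBgn0044812) at chr3R:20872988-20873580, *TotB* (FBgn0038838) at chr3R:20873938-20874522 and *TotZ* (FBgn0044809) at chr3R:20877736-20878363, all on the forward strand. Those 4 genes span 7328 bases, with 1 other annotated gene within the span. *TotX* (FBgn0044810) is at chr3R:20904917-20905518 on the reverse strand, inside an intron of *Grik*, a glutamate receptor gene on the forward strand, and it overlaps 0 *Grik* exons. *TotM* (FBgn0031701) stands apart at chr2L:5329857-5330464 on the forward strand. Their annotated exons add up to at most 602 bases, in *TotX*, and their coding regions to between 129 codons in *TotA* and *TotC* and 147 codons in *TotZ*. The genes are related in sequence, and neither the strand used in counting nor the treatment of reads with several matches is given in the sources used here, so reads may have been divided unequally among them.

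The members differed by orders of magnitude in level. Scaled by exon length as well as depth (RPKM), the median over the 40 pools was 338 for *TotA*, 149 for *TotC*, 16.5 for *TotM*, 4.85 for *TotX*, 0.313 for *TotB* and 0 for *TotZ*. *TotA* was above *TotC* in 37 of 40 pools, *TotC* above *TotM* in 40, *TotM* above *TotX* in 31, and *TotX* above *TotB* in 40. The order of *TotM* and *TotX* was thus the least fixed of these. *TotB*, which lies less than 1 kilobase downstream of *TotC*, had a median of 0.851 counts for every 1000 *TotA* counts. Only *TotA*, *TotC*, *TotM* and *TotX* passed the filter on low counts, and the other 2 members entered no fit across features.

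*TotA* was read in every pool, but its level spanned 4.07 to 635 CPM, a 156-fold range, with a median of 196 CPM. Among acutely fed flies the lowest, median and highest pools were at 87.1, 275 and 550.3 CPM with DMSO, 72.4, 260.3 and 368 CPM with 2-AAPA, and 115, 323 and 533 CPM with mitoQ. Among chronically fed flies they were at 4.07, 130.5 and 190.4 CPM with DMSO, 83.9, 177 and 635 CPM with 2-AAPA, and 37.0, 152 and 278 CPM with mitoQ. The acute medians were the 3 highest and the chronic medians the 3 lowest, yet every pair of groups overlapped. Chronic DMSO 4 was lowest by far, with 99 reads against 1062 in the next lowest pool, and chronic 2-AAPA 7 was highest.

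*TotC*, the neighbour of *TotA*, spanned 2.76 to 541 CPM with a median of 78.8 CPM. The lowest, median and highest acute pools were at 74.2, 112 and 541 CPM with DMSO, 54.3, 97.0 and 117 CPM with 2-AAPA, and 57.1, 133 and 359 CPM with mitoQ. The chronic pools were at 2.76, 34.3 and 99.8 CPM with DMSO, 24.5, 49.3 and 362 CPM with 2-AAPA, and 28.6, 47.1 and 109.8 CPM with mitoQ. As for *TotA*, the acute medians were above the chronic medians, and every pair of groups overlapped. The highest pool was acute DMSO 4 and the lowest was again chronic DMSO 4. In chronic 2-AAPA, replicates 5 and 7 lay at 362 and 311 CPM, above all other chronic pools.

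*TotM*, the member on chromosome arm 2L, spanned 2.80 to 251 CPM with a median of 9.10 CPM. Acute pools were at 5.67, 19.8 and 251 CPM with DMSO, 5.47, 7.78 and 11.9 CPM with 2-AAPA, and 4.70, 35.3 and 103 CPM with mitoQ, for the lowest, median and highest. Chronic pools were at 2.80, 6.33 and 28.1 CPM with DMSO, 3.04, 8.77 and 52.7 CPM with 2-AAPA, and 2.97, 6.96 and 18.2 CPM with mitoQ. The 6 acute 2-AAPA pools lay close together at low levels, while acute DMSO and acute mitoQ pools spread widely, and no pair of groups was separated. Acute DMSO 4 was the highest pool, with 7234 reads and a level 2.45 times that of the next pool, acute mitoQ 7.

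*TotX*, on the far side of the cluster, had a different order. It spanned 0.349 to 30.9 CPM with a median of 2.92 CPM, and its counts lay between 10 and 850 reads. Acute pools were at 1.27, 2.66 and 30.9 CPM with DMSO, 1.07, 3.44 and 30.1 CPM with 2-AAPA, and 1.07, 2.69 and 6.16 CPM with mitoQ. Chronic pools were at 0.530, 2.85 and 15.7 CPM with DMSO, 1.40, 9.93 and 23.2 CPM with 2-AAPA, and 0.349, 1.92 and 10.9 CPM with mitoQ. Chronic 2-AAPA had the highest median, all pairs of groups overlapped, and the highest pools were acute DMSO 2 and acute 2-AAPA 6, which were not the highest for *TotA*, *TotC* or *TotM*. Acute 2-AAPA 6 was the pool of 13 heads. Chronic 2-AAPA 6, the highest chronic pool at 23.2 CPM, had 4.37% of its reads in mitochondrial genes, against 0.439% in the next highest pool, chronic DMSO 4.

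**Figure D1:**
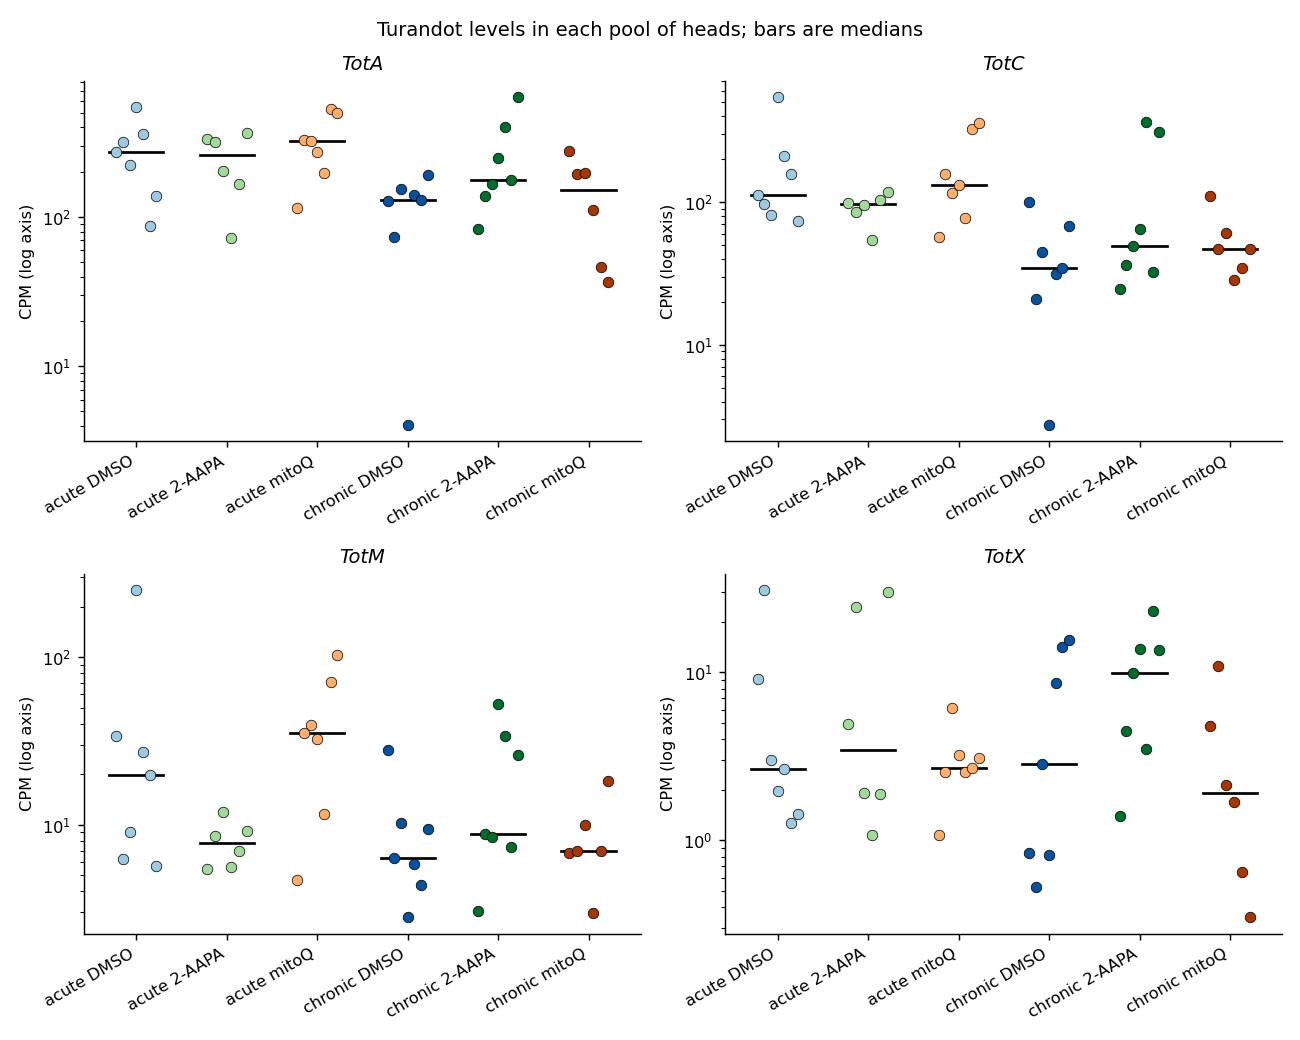
Level of *TotA*, *TotC*, *TotM* and *TotX* in each of 40 pools of heads, in CPM on a log axis, with 1 point for each pool, a bar at the median and 1 column for each of the 6 groups. Chronic DMSO 4 is the lowest *TotA* point at 4.07 CPM, and acute DMSO 4 is the highest *TotM* point at 251 CPM.

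*TotB* and *TotZ* were near the limit of detection. *TotB* had 211 reads in all 40 pools together, between 0 and 17 in a pool, and 0 in 2 pools, chronic DMSO 4 and chronic 2-AAPA 1. Its lowest, median and highest levels were 0.0738, 0.202 and 0.603 CPM in the 20 acute pools and 0, 0.104 and 0.680 CPM in the 20 chronic pools, where 3 counts correspond to 0.0978 to 0.150 CPM. The acute pools held 130 of its reads and the chronic pools 81, and the mean log2 CPM was 0.61 lower in chronic pools (two-sided permutation test over samples, unadjusted p = 0.013). *TotZ* had 8 reads in all and was at 0 in 33 pools, where a count of 0 allows up to 3 counts. Neither entered a fit across features. Within agents, the mean log2 CPM of *TotB* was 1.12 lower in chronic than in acute mitoQ (exact two-sided permutation test, unadjusted p = 0.00583) and did not pass an unadjusted p of 0.05 in DMSO (p = 0.0868), in 2-AAPA (p = 0.994) or between agents. *TotZ* passed in none of its comparisons, with a lowest permutation p of 0.198.

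The other annotated members of the family in the table, *TotE* and *TotF*, were likewise nearly silent. *TotE* had 0 reads in all 40 pools, and *TotF* had 7 reads, at most 3 in a pool. Only part of the family was therefore measurable in heads at this depth, and counting error, without molecular identifiers, is the only error that a limit of 3 counts covers.

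Replicate pools of a group differed in their Turandot levels far more than for most features. The biological coefficient of variation, the spread among pools of a group beyond counting noise as edgeR estimates it, was 0.641 for *TotA*, 0.718 for *TotC*, 0.837 for *TotM* and 0.992 for *TotX*. Over all 11477 features that passed the filter its median was 0.164, and the members lay above 94.7%, 96.2%, 97.6% and 98.8% of features. Read against features of similar abundance only, each of the 4 lay above at least 99.3%. On the log2 CPM scale the pooled standard deviation within groups was 1.18 for *TotA*, 1.17 for *TotC*, 1.32 for *TotM* and 1.63 for *TotX*, against a median of 0.238.

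**Figure D2:**
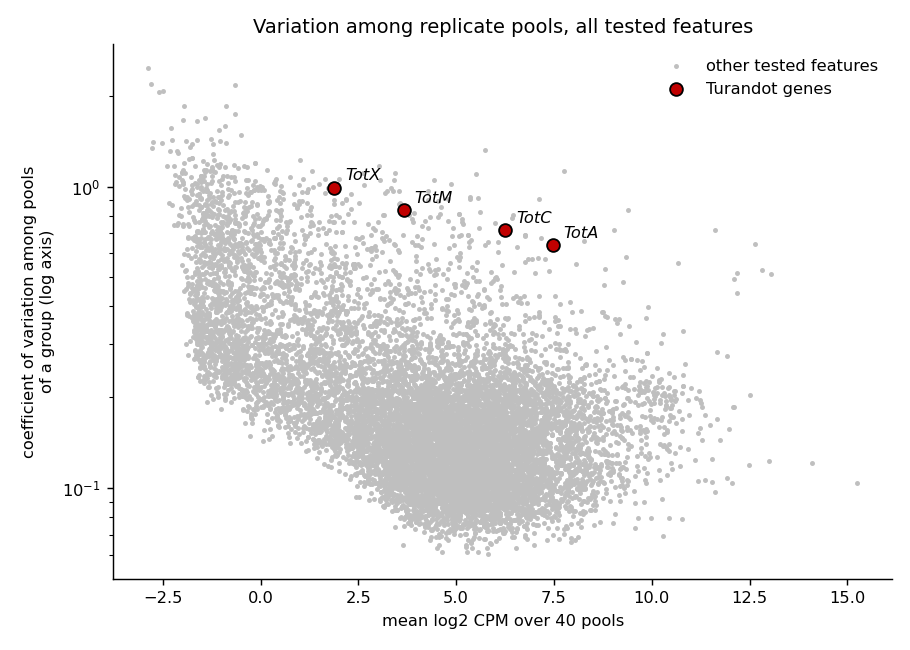
Coefficient of variation among replicate pools (log axis) against mean log2 CPM over 40 pools, for each of 11477 features (grey) and for *TotA*, *TotC*, *TotM* and *TotX* (red). The 4 Turandot genes, at 0.641 to 0.992, lie near the upper edge at their abundance.

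The first comparison asked how the length of feeding related to gene expression over all agents together. Fitted levels of *TotA*, *TotC* and *TotM* were below those of acute feeding in chronically fed flies, but no member passed the test over all features. The log2 fold change of chronic against acute feeding was -0.79 ± 0.33 (SE) for *TotA*, -1.18 ± 0.42 for *TotC*, -1.33 ± 0.57 for *TotM* and -0.06 ± 0.48 for *TotX* (n = 20 pools each). The adjusted p (edgeR, quasi-likelihood F test, Benjamini-Hochberg over 11477 features) was 0.137 for *TotA*, 0.0722 for *TotC*, 0.154 for *TotM* and 0.958 for *TotX*. So 0 of 4 members were called, against 8.64% of all features, while 3 of 4 were under an unadjusted p of 0.05, against 22.3%.

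That result lay near the threshold for *TotC*. DESeq2 called *TotC* (log2 fold change -1.17, adjusted p = 0.0187) and *TotM* (-1.33, adjusted p = 0.0351). Without chronic 2-AAPA 5 or chronic 2-AAPA 7, the chronic pools with the highest *TotC*, edgeR's adjusted p for *TotC* was 0.016 or 0.0264. Without acute DMSO 4, the *TotM* difference shrank from -1.33 to -0.63 (edgeR, adjusted p = 0.468). Without chronic DMSO 4 or without chronic DMSO 7, the *TotC* difference was -1.07 (edgeR, adjusted p = 0.0784) or -1.18 (adjusted p = 0.0839).

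Within vehicle-fed flies, *TotC* and *TotM* were lower after chronic feeding. *TotC* was 4.22-fold lower in chronic DMSO than in acute DMSO (log2 fold change -2.08 ± 0.61, 95% interval -3.31 to -0.84, edgeR adjusted p = 0.0365), with 7 pools in each group. *TotM* was 5.26-fold lower (-2.39 ± 0.73, interval -3.87 to -0.91, edgeR adjusted p = 0.0463), and for both genes the pools of the groups overlapped. *TotA* was at -1.25 ± 0.52 (edgeR adjusted p = 0.204) and *TotX* at -0.22 ± 0.82 (adjusted p = 0.947). Thus 2 of 4 members were called, against 5.11% of all features, and both were among features lower in chronic DMSO, which made up 1.47%, while 3 of 4 were under an unadjusted p of 0.05, against 15.3%.

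Both calls depended on the pools and groups in the fit. With only the 2 DMSO groups fitted, *TotC* was at -2.07 (edgeR adjusted p = 0.312) and *TotM* at -2.39 (adjusted p = 0.403), both uncalled. Leaving out acute DMSO 4 moved *TotC* to -1.50 (edgeR adjusted p = 0.172) and *TotM* to -0.82 (adjusted p = 0.627), and leaving out acute DMSO 5 left both uncalled, at adjusted p = 0.0609 and 0.0534. Leaving out any of chronic DMSO 2 to 7 also left both uncalled, with adjusted p between 0.0526 and 0.0862 for *TotC* and between 0.0656 and 0.144 for *TotM* in edgeR. *TotC* was uncalled in 8 of the 40 fits that each lacked a pool, and *TotM* in 21, several of which lacked a pool of another agent. Both log2 fold changes were below 0 in all 40 of these fits. Without chronic DMSO 4 *TotC* was at -1.87 and *TotM* at -2.24, and without chronic DMSO 7 at -2.22 and -2.39. With acute DMSO 4 and chronic DMSO 4 both removed, an alternative chosen after seeing the data, *TotC* was at -1.29 (edgeR adjusted p = 0.239) and *TotM* at -0.66 (adjusted p = 0.715). An exact permutation test of the mean log2 CPM, two-sided over 3432 arrangements and unadjusted, gave p = 0.00291 for *TotC*, 0.0274 for *TotA* and 0.0973 for *TotM*.

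**Figure D3:**
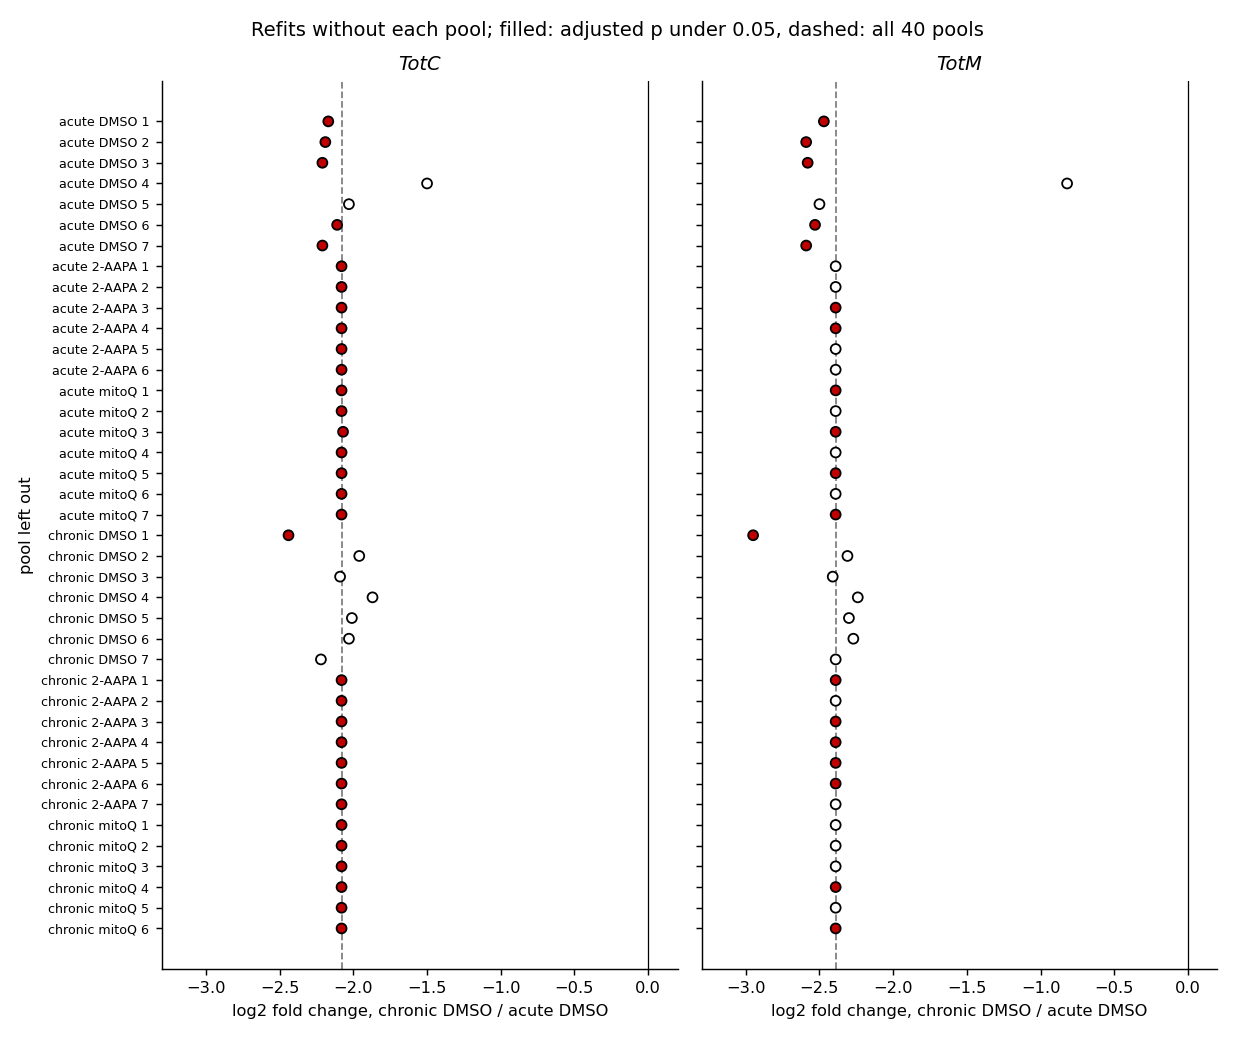
Log2 fold change of *TotC* and *TotM* in chronic against acute DMSO (x axis) after leaving out each of the 40 pools in turn (y axis), with filled points for an adjusted p under 0.05 and a dashed line at the value from all pools. Without acute DMSO 4 the values move to -1.50 and -0.82, the points nearest 0.

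In flies fed mitoQ the fitted values of *TotA*, *TotC* and *TotM* were also below 0, but none passed the adjusted threshold. *TotM* was at -2.29 ± 0.77 (edgeR adjusted p = 0.481), *TotC* at -1.67 ± 0.63 (adjusted p = 0.643), *TotA* at -1.17 ± 0.55 (adjusted p = 0.947) and *TotX* at 0.16 ± 0.88 (adjusted p = 0.999), for 6 chronic against 7 acute pools. So 0 of 4 members were called, against 0.157% of all features, and 3 of 4 were under an unadjusted p of 0.05, against 5.21%. Few features of any kind were called in mitoQ-fed flies, 18 in all.

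In flies fed 2-AAPA no member was lower with chronic feeding beyond its error. The log2 fold change was 0.12 ± 0.54 for *TotA*, 0.45 ± 0.61 for *TotC*, 1.33 ± 0.75 for *TotM* and -0.11 ± 0.85 for *TotX*, and the adjusted p in edgeR was at least 0.447. Here 0 of 4 members were called, against 4.21% of all features. Medians of acute and chronic pools were 260.3 and 177 CPM for *TotA* and 97.0 and 49.3 CPM for *TotC*, lower in chronic feeding. They were 7.78 and 8.77 CPM for *TotM* and 3.44 and 9.93 CPM for *TotX*, higher in chronic feeding. For *TotC* 5 of 7 chronic pools lay below the acute median, and without chronic 2-AAPA 5 its log2 fold change was -0.09. Whether the schedule acted differently among the agents was tested as an interaction. It was called for 0 of 4 members and for 0 of 11477 features in edgeR, of which 6.13% had an unadjusted p under 0.05, while DESeq2 called 36 features and no member. *TotM* had an unadjusted p of 0.00162 and an edgeR adjusted p of 0.206, and *TotC* 0.014 and 0.501, so that the difference between agents did not pass the threshold.

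Markers of the fat body moved with these comparisons in part. Over all agents 5 of 9 tested fat body markers were lower in chronic feeding and 0 were higher, against 8.64% of all features called. The median log2 fold change was -0.55 over the list and 0.01 over all features. Fold changes were below 0 for 7 of the 9. *Lsp2*, a larval serum protein of the fat body, was at -1.88 ± 0.27 (edgeR adjusted p = 5.65e-06). *apolpp*, the precursor of the lipid carrier apolipophorin, was at 0.06 ± 0.26 (adjusted p = 0.917), and its median level was higher in chronic than in acute pools of every agent. In DMSO 3 of 9 markers were lower, against 5.11% of all features called, with a median of -0.52. The summed level of the list there ran from 5645 to 12443 CPM in acute and from 3452 to 7806 CPM in chronic pools. In 2-AAPA 3 of 9 markers were also lower, against 4.21% of all features called, with a median of -0.75. The sums were 9411 to 14039 and 5555 to 9868 CPM, and 0 Turandot members were called there. In mitoQ 0 of 9 were called, against 0.157% of all features, with a median of -0.16 and sums of 7604 to 10070 and 5468 to 10374 CPM. *Lsp2* and *Obp99b* of the list were above 0 in every pool. *Lsp1gamma*, *Fbp1* and *Fbp2* of the same list reached at most 0.672, 0.617 and 0.254 CPM in any pool. The part of the fat body in the Turandot differences was not tested.

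The remaining comparisons asked whether a drug changed expression at a matched length of feeding. Over both schedules together, the drug test called 0 of 4 members in edgeR and 1 feature in all (0.00871%). *TotX* had an unadjusted p of 0.0309 and an adjusted p of 0.578, and the other members had adjusted p of at least 0.752.

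After acute feeding no drug changed a Turandot gene beyond the adjusted threshold. With 2-AAPA *TotM* was at -2.67 ± 0.78 against DMSO (edgeR unadjusted p = 0.00164, adjusted p = 0.628), and at -1.09 without acute DMSO 4. *TotC* was at -0.98 ± 0.62, *TotA* at -0.20 ± 0.54 and *TotX* at 0.58 ± 0.85. Here 0 of 4 members were called, against 0.0261% of features. With mitoQ 0 of 4 members and 0 of 11477 features were called by edgeR, 1.54% of features had an unadjusted p under 0.05, and DESeq2 called 1 feature that is no member. The values were 0.22 ± 0.52 for *TotA*, -0.06 ± 0.58 for *TotC*, -0.25 ± 0.69 for *TotM* and -1.24 ± 0.84 for *TotX*. Without acute DMSO 4 the *TotM* value turned to 1.33 and the *TotC* value to 0.52.

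When 2-AAPA and mitoQ were set against each other after acute feeding, *TotM* had the largest fitted value of the 4 members. *TotM* was at -2.42 ± 0.78 in 2-AAPA relative to mitoQ (95% interval -3.99 to -0.84), with an unadjusted p of 0.00361 but an adjusted p of 1 in edgeR. The exact two-sided permutation test of its log2 CPM gave an unadjusted p of 0.0152. *TotX* was at 1.81 ± 0.87 (edgeR unadjusted p = 0.0452, adjusted p = 1), *TotC* at -0.92 ± 0.62 and *TotA* at -0.41 ± 0.54. Among all features 0 of 11477 were called by edgeR and 0 by DESeq2, with 1.92% under an unadjusted p of 0.05 in edgeR.

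After chronic feeding the 2-AAPA pools had higher fitted levels than DMSO pools for all 4 members, none past the adjusted threshold. *TotC* was at 1.55 ± 0.60 (95% interval 0.33 to 2.76, edgeR adjusted p = 0.262), *TotA* at 1.17 ± 0.52 (adjusted p = 0.406), *TotM* at 1.06 ± 0.71 and *TotX* at 0.68 ± 0.82. No member was called, 0 of 4, against 2.13% of all features, and 237 of the 245 features called were lower in 2-AAPA. The DMSO side includes chronic DMSO 7, the pool with the most detected features (16259), and its part in these calls was not tested. Leaving out chronic 2-AAPA 5 brought *TotC* to 1.01, and leaving out chronic 2-AAPA 7 brought *TotA* to 0.79. Without chronic 2-AAPA 6 *TotX* was at 0.32. Without chronic DMSO 4 the values were 1.34 for *TotC* and 0.96 for *TotA*, and without chronic DMSO 7 they were 1.72 and 1.35, with adjusted p of at least 0.398 in edgeR.

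Chronic mitoQ against chronic DMSO gave 0.29 ± 0.54 for *TotA*, 0.35 ± 0.61 for *TotC*, -0.15 ± 0.74 for *TotM* and -0.86 ± 0.88 for *TotX*. Again 0 of 4 members were called, against 1.82% of features, and *TotA* was at 0.08 without chronic DMSO 4 and at 0.45 without chronic DMSO 7. Chronic 2-AAPA against chronic mitoQ gave 0.88 ± 0.55 for *TotA*, 1.20 ± 0.62 for *TotC*, 1.21 ± 0.75 for *TotM* and 1.54 ± 0.89 for *TotX*. Here 0 of 4 members and 0 of 11477 features were called by edgeR, 8.35% of features had an unadjusted p under 0.05, and DESeq2 called 2 features, neither a member. The drug comparisons of a schedule share their DMSO or drug pools. With standard errors of 0.52 to 0.89, each interval left room for changes of more than 2-fold, and the results do not show that the drugs left these genes alone.

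**Figure D4:**
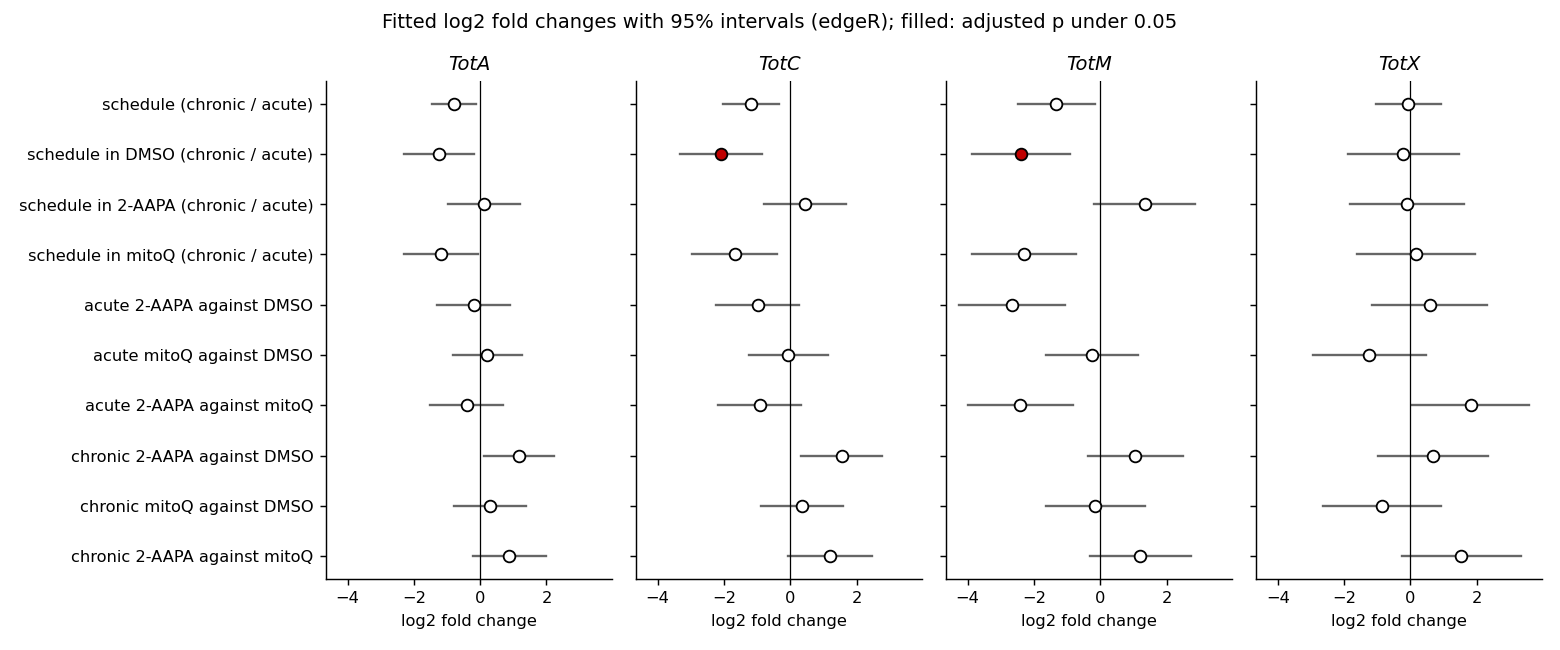
Fitted log2 fold changes (x axis) of *TotA*, *TotC*, *TotM* and *TotX* in 10 comparisons (y axis), with 95% intervals built from edgeR's log2 fold changes and F values. Filled points have an adjusted p under 0.05. Only *TotC* (-2.08) and *TotM* (-2.39) between chronic and acute DMSO are filled.

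Pools that were high for a Turandot gene relative to their group were often high for another. Over 40 pools, with each group's mean log2 CPM subtracted, *TotA* and *TotC* were correlated with Pearson's r = 0.80 and Spearman's rho = 0.80 (permutation test, unadjusted p = 1e-05 for both, the smallest that 100000 resamples can give, adjusted p = 4.67e-05). *TotC* and *TotM*, which lie on different chromosomes, had r = 0.75 and rho = 0.76 with the same p-values. *TotA* and *TotX* had r = 0.58 (permutation p = 3.00e-05, adjusted p = 1.05e-04) and rho = 0.59 (permutation p = 7.00e-05, adjusted p = 2.45e-04). *TotA* and *TotM* had r = 0.48 (permutation p = 0.00219, adjusted p = 0.00383) and rho = 0.54 (permutation p = 5.00e-04, adjusted p = 0.00117).

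Correlations of *TotX* with *TotC* and with *TotM* passed no threshold. For *TotC* and *TotX* r was 0.19 (permutation p = 0.244, adjusted p = 0.284) and rho 0.21 (permutation p = 0.193, adjusted p = 0.246). For *TotM* and *TotX* r was 0.02 (permutation p = 0.919, adjusted p = 0.919) and rho 0.07 (permutation p = 0.677, adjusted p = 0.729). Without the 2 pools farthest from the median of the gene named first, r became 0.76 for *TotA* and *TotC*, 0.77 for *TotC* and *TotM*, 0.57 for *TotA* and *TotX*, 0.57 for *TotA* and *TotM*, 0.17 for *TotC* and *TotX*, and 0.02 for *TotM* and *TotX*. For *TotA* and for *TotC*, chronic DMSO 4 was among the pools left out. These 6 pairs belong to a family of 14 relations over which p-values were adjusted, and the 8 others, with library properties, were chosen after the levels had been seen.

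Those 8 relations set each member against the summed fat body markers and against the share of ribosomal RNA. The sum mostly reflects its most abundant genes. *to*, *apolpp*, *Obp99b* and *Lsp2* reached 5286, 4035, 3905 and 2929 CPM in their highest pools, and the other markers at most 675 CPM. The fat body level, on a log2 scale and with group means subtracted, was correlated with *TotA* at r = 0.73 and rho = 0.70 (permutation p = 1e-05 for both, adjusted p = 4.67e-05). For *TotX* the values were r = 0.55 (permutation p = 2.50e-04, adjusted p = 7.00e-04) and rho = 0.63 (permutation p = 9.00e-05, adjusted p = 2.52e-04). For *TotC* they were r = 0.54 (permutation p = 5.10e-04, adjusted p = 0.00119) and rho = 0.48 (permutation p = 0.00192, adjusted p = 0.00384), and for *TotM* r = 0.31 (permutation p = 0.0525, adjusted p = 0.0735) and rho = 0.30 (permutation p = 0.0625, adjusted p = 0.0875). The r was highest for *TotA* and lowest for *TotM*, and the difference between them was not tested. Without the 2 farthest pools r was 0.62 for *TotA*, 0.53 for *TotX*, 0.42 for *TotC* and 0.28 for *TotM*.

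The share of ribosomal RNA was correlated with *TotA* at r = 0.55 (permutation p = 7.80e-04, adjusted p = 0.00156) and rho = 0.37 (permutation p = 0.0179, adjusted p = 0.0302). Without chronic DMSO 4 and chronic mitoQ 6, r fell to 0.25 and rho to 0.28, and the relation in the remaining pools was not tested. For *TotX* r was 0.37 (permutation p = 0.0181, adjusted p = 0.0282) and rho 0.37 (permutation p = 0.0194, adjusted p = 0.0302), and r was 0.35 without its 2 farthest pools. For *TotC* r was 0.28 (permutation p = 0.0776, adjusted p = 0.0988) and rho 0.12 (permutation p = 0.462, adjusted p = 0.539), and r became 0.01 without its 2 farthest pools. For *TotM* r was -0.04 (permutation p = 0.815, adjusted p = 0.877) and rho -0.03 (permutation p = 0.873, adjusted p = 0.873), and r became 0.09.

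**Figure D5:**
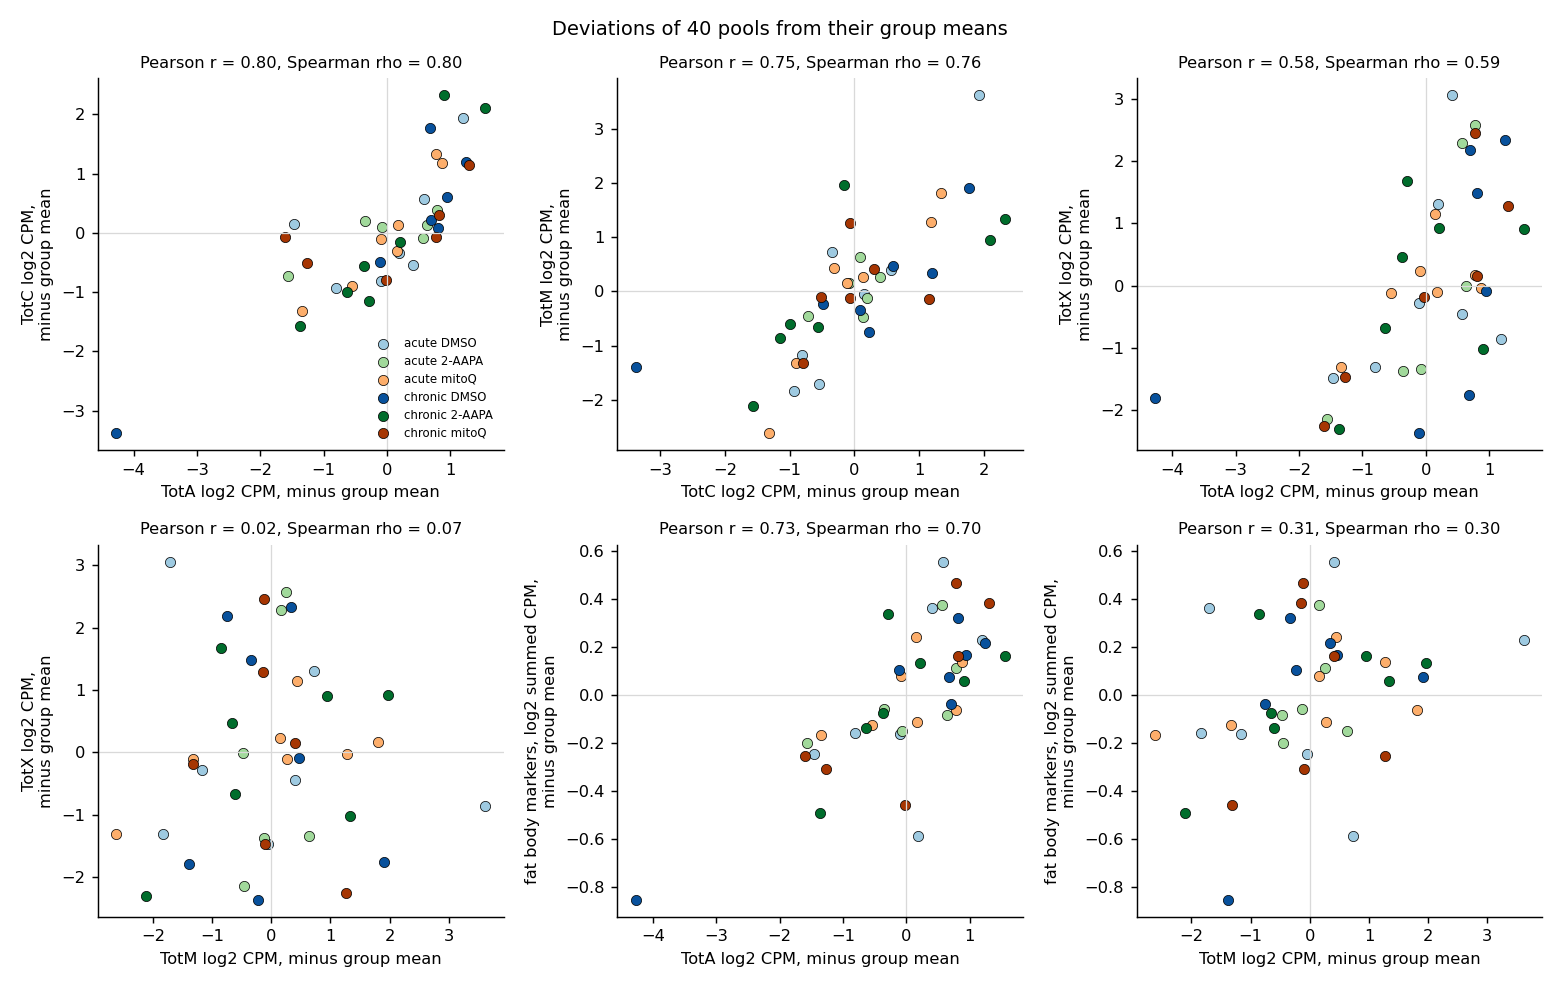
Deviation of each of 40 pools from its group mean in log2 CPM, for *TotA* against *TotC*, *TotC* against *TotM*, *TotA* against *TotX* and *TotM* against *TotX*, and for *TotA* and *TotM* (x axes) against the log2 summed level of fat body markers, with colours for the 6 groups. *TotA* and *TotC* rise together (r = 0.80), *TotM* and *TotX* form no such band (r = 0.02), and chronic DMSO 4 is the point at the lower left of the *TotA* panels.

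Among 11476 other features, *TotC* had the second closest pattern to *TotA* by Spearman's rho over the 40 group-centred pools. The 5 closest features outside the family were *CG1468* (rho = 0.81), *CG9928* (0.80), *lectin-24A* (0.79), *CG7966* (0.78) and *Cyp4ac1* (0.77). *lectin-24A* encodes a C-type lectin, and *Cyp4ac1* a cytochrome P450. *TotX* ranked 196 and *TotM* 387 in the same list. Of these 5 features, *lectin-24A* (log2 fold change -0.80, edgeR adjusted p = 0.0402) and *CG7966* (-0.46, adjusted p = 0.00154) were lower in chronic feeding over all agents.

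Upstream of the Turandot genes, the cytokines of the JAK-STAT pathway were barely detected in heads. *upd2* and *upd3* had at most 8 and 13 reads in a pool, and *upd1* had at most 83, in chronic DMSO 7, where it reached 3.02 CPM against 0.310 CPM in the next pool. The receptor gene *dome* had a median of 43.3 CPM, the kinase gene *hop* 29.6 CPM and *Stat92E* 175 CPM. None differed between schedules in edgeR, at log2 fold changes of 0.02 (adjusted p = 0.906), -0.03 (adjusted p = 0.835) and -0.08 (adjusted p = 0.706).

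The schedule test over all agents called 8.64% of all features. Of 14 tested genes of a JAK-STAT list, 3 were lower and 0 higher in chronic feeding over all agents. They were *et*, which encodes a receptor that dampens the pathway (-0.42 ± 0.09, edgeR adjusted p = 8.59e-04), *Tep2*, a thioester-containing protein (-0.36 ± 0.07, adjusted p = 6.54e-04), and *Diedel*, a secreted immune modulator (-2.06 ± 0.53, adjusted p = 0.00862). *Diedel* was low throughout, with a median of 0.229 CPM, and its highest pool, at 11.1 CPM against 2.04 CPM in the next, was acute DMSO 4, the pool that was also highest for *TotC* and *TotM*. In DMSO alone 1 of the 14, *ken*, a repressor of some pathway targets, was higher in chronic feeding (0.36 ± 0.11, edgeR adjusted p = 0.0343). With 5.11% of all features called in DMSO, that count is no result about the list. The highest *ken* levels were in chronic DMSO 4 (27.7 CPM) and chronic DMSO 7 (22.2 CPM), and no fit without them is given for *ken*. The median over the list was 0.00 over all agents and -0.04 in DMSO, against 0.01 for all features in both.

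Other stress and immune pathways were counted in the same way over all agents, where 8.64% of all features were called and their median was 0.01. Among 14 genes of stress MAP kinase signalling, *puc*, the phosphatase that is induced by Jun kinase signalling (0.34 ± 0.06, edgeR adjusted p = 3.52e-04), and *Jra*, the fly Jun (0.16 ± 0.04, adjusted p = 0.00328), were higher in chronic feeding and 0 were lower, with a list median of 0.05. Of 15 genes of the Imd pathway 1 was lower, the peptidoglycan receptor gene *PGRP-SD* (-0.59 ± 0.14, edgeR adjusted p = 0.00541), with a list median of -0.02. Both shares lay near that of all features and are no result about these lists. Of 10 tested antimicrobial peptide genes 0 were called over all agents by edgeR, with 1 under an unadjusted p of 0.05.

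The pool highest for summed antimicrobial peptides was not the highest for *TotA*, *TotC*, *TotM* or *TotX*. The sum covers 13 of 15 listed peptide genes, as *BaraA* and *Drs* had no matching symbol. Summed antimicrobial peptides reached 853 CPM in chronic 2-AAPA 4, where *TotM* had its highest chronic level (52.7 CPM) while *TotA*, at 250.0 CPM, was below replicates 5 and 7. Acute DMSO 4, the highest pool for *TotC* and *TotM*, had 17.0 CPM of antimicrobial peptides. Acute mitoQ 7, second highest for *TotM* (103 CPM) and at 359 CPM for *TotC*, had 74.6 CPM of them, against a median of 22.4 CPM over all pools. The relation between these peptides and the Turandot genes was not tested. Heat shock genes had 6 of 14 lower and 1 higher in chronic feeding, against 8.64% of all features called, with a list median of -0.15 against 0.01, and the lower ones included *Hsp83*, the fly Hsp90 (-0.31 ± 0.04, edgeR adjusted p = 5.39e-06), and 4 near-identical *Hsp70* copies whose reads may be shared. Of 9 tested hemocyte markers 2 were lower over all agents, and 0 of the neuron, glia and photoreceptor markers were called by edgeR, against 8.64% of all features called. Of 5 tested gut markers 2 were lower over all agents, against 8.64% of all features called. They were the amylase genes *Amy-p* (-1.01) and *Amy-d*, near-identical copies, which were also the 2 lower in 2-AAPA, against 4.21% of all features called. In DMSO 2 were higher, the protease genes *Jon99Cii* and *Jon99Ciii* (4.92 and 4.44), against 5.11% of all features called. Of 2 tested testis markers *betaTub85D*, a testis tubulin, was higher in DMSO (4.85, edgeR adjusted p = 0.00211), against 5.11% of all features called. Over all agents 0 testis markers were called, against 8.64% of all features. In chronic DMSO 7 *Jon99Cii* was at 69.2 CPM, *Jon99Ciii* at 52.7 CPM and *betaTub85D* at 253 CPM. Their next highest pools were at 0.534, 0.551 and 1.78 CPM, and no fit without chronic DMSO 7 is given for these genes. Of 3 female markers 0 were called over all agents, against 8.64% of all features. The part of these cell types in the Turandot differences was not tested.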

How the data were processed

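Heads of the 40 pools were sequenced from poly-A libraries made with a directional kit. The authors clipped and mapped reads to BDGP6 with the nf-core pipeline, keeping reads with many matches, and counted genes with featureCounts and transposable elements with TEcount; versions of these counters are not given in the sources used here. The deposited table holds raw counts per feature. Here, counts of features passing edgeR's filterByExpr (11477) were scaled by TMM and fitted with edgeR 4.0.16 under R 4.3.3 (robust quasi-likelihood, Benjamini-Hochberg over all features tested, adjusted p threshold of 0.05). The schedule and drug tests used an additive model, and all other comparisons a model of 6 groups that share 1 dispersion. Each SE is the fold change divided by the square root of F. Levels are CPM, with a prior count of 2 for log2 CPM. Features below the filter were kept in the levels only. Library totals ranged from 24318573 to 30104079, and pools were grouped by their labels. All 6 members, list genes with an adjusted p under 0.05 by schedule, the main pathway components, and the 5 features nearest to *TotA* were named. Members, gene lists and tests were chosen with earlier results of these data known. Of the list genes, 4 had no matching symbol. The fits were tested on simulated counts, with the coefficient of variation that edgeR's trend gives at each abundance. For the 4 tested members that trend was at 0.188 to 0.302, against their own 0.641 to 0.992, so the simulation does not cover genes as variable as these. DESeq2 1.42.0, limma 3.58.1, other scalings, no filter, left-out pools and permutation over samples (100000 resamples, or all arrangements for smaller groups, two-sided, 60 comparisons, unadjusted) were alternatives.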

Additional observations from a re-analysis of the deposited data

Results flagged for a closer look

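Within the 6 groups, a pool was singled out when its gap to the nearest pool, divided by the range of the group, exceeded the 95% critical value of Dixon's test on log2 CPM. Over 30 combinations of gene and group (*TotA*, *TotC*, *TotM*, *TotX* and *TotB*), 1 was singled out, where chance gives about 1 in 20. It was *TotA* in chronic DMSO 4, at 4.07 CPM against 74.2 CPM in the next pool of that group and 37.0 CPM in the next lowest pool of all. The same pool was also lowest for *TotC* and *TotM*, for fat body markers and for ribosomal RNA, and their part in its low *TotA* was not tested.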

How the results depend on the processing

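Members named here kept the sign of their fold change, and those uncalled kept their side of the adjusted threshold, under most alternatives (scaling by DESeq2 size factors, no filter on low counts, DESeq2, a replicate block, only the groups compared, left-out pools); the exceptions follow, and for each the cause was not tested. Over all agents 0 members were called by schedule, but 2 by DESeq2 (*TotC* and *TotM*), 1 by the study's log-scale pipeline (*TotC*, -1.39, limma-normalised, adjusted p = 0.0234) 3 of the 4 tested members at an unadjusted p under 0.05 by permutation over samples, as was *TotB* (p = 0.013), which entered no fit, and between 0 and 1 when a pool was left out. In DMSO 2 members were called, but 0 with a replicate block (*TotC* -2.23, edgeR adjusted p = 0.0934, and *TotM* -1.67, adjusted p = 0.38), 0 with only the 2 groups compared (adjusted p = 0.312 and 0.403), 0 without acute DMSO 4 and chronic DMSO 4 together, and between 0 and 2 when a pool was left out. Permutation, unadjusted and so a looser threshold, passed 3 of the 4 tested members and also *TotB* (p = 0.00583) in mitoQ-fed flies by schedule, and 1 tested member between acute 2-AAPA and acute mitoQ. The replicate numbers did not pair the pools: in 0 of 9 comparisons was every same-numbered pair's correlation over 0.1 (range -0.574 to 0.619), and between 0 and 3 pools of a comparison correlated best with their own number.

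Signs turned only for differences that no test called. With the replicate block, *TotX* was at 0.11 by schedule, 0.06 in DMSO, 0.45 in 2-AAPA and -0.15 in mitoQ, *TotA* at -0.05 in 2-AAPA, and *TotM* at 0.29 in acute mitoQ against DMSO. As a difference of mean log2 CPM, the scale of the permutation test, *TotX* was at 0.52 in 2-AAPA and -0.49 in mitoQ, *TotC* at -0.31 in 2-AAPA and 0.01 in acute mitoQ against DMSO, and *TotM* at 0.52 in acute mitoQ and 0.01 in chronic mitoQ against DMSO. Without both DMSO pools numbered 4, acute 2-AAPA against DMSO was at 0.06 for *TotA*, and acute mitoQ against DMSO at 0.52 for *TotC* and 1.33 for *TotM*. Leaving out each pool in turn, *TotX* ranged from -0.30 to 0.32 by schedule, -0.63 to 0.93 in DMSO, -0.47 to 0.53 in 2-AAPA, -0.66 to 0.45 in mitoQ and -0.07 to 1.72 in acute 2-AAPA against DMSO. *TotA* ranged from -0.26 to 0.28 by schedule in 2-AAPA, -0.35 to 0.06 in acute 2-AAPA against DMSO and -0.00 to 0.49 in chronic mitoQ against DMSO. *TotC* ranged from -0.09 to 0.63 by schedule in 2-AAPA and -0.34 to 0.52 in acute mitoQ against DMSO, and *TotM* from -0.64 to 1.33 in acute mitoQ and -0.51 to 0.40 in chronic mitoQ against DMSO.

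The range of *TotA* over pools was 152-fold with plain library totals in place of 156-fold, and the 6 correlations kept their sign and their side of an unadjusted p of 0.05 without subtraction of group means. Depth limits *TotB* and *TotZ*, whose counts stayed at or below 17 reads in a pool.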
